A study of Mus musculus with 4 samples.

Results

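Collagens and laminins are the main structural proteins of the extracellular matrix, and their transcripts were followed in mouse pachytene spermatocytes with and without a knockdown of Hsf5. The 55 genes were taken from the deposited count table of 50763 genes by symbol, as every collagen chain gene (Col, a type number, a and a chain number) and every laminin chain gene (Lama, Lamb or Lamc with a number), and comprised 44 collagen and 11 laminin genes. Polyadenylated RNA of meiotic cells from testis was sequenced in 4 libraries, 2 labelled wild type (WT) and 2 labelled Hsf5 knockdown, with no age, strain, sorting step or knockdown agent in the labels. Hsf5 is a testis heat shock factor, and the study asked how gene expression at pachynema depends on it. The labels call the replicates biological without naming the animals, so the p-values below rest only on how far these libraries differ, which may be technical.

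Collagens are trimers of chains that wind into a triple helix. Laminins are cross-shaped trimers of an alpha, a beta and a gamma chain. Type IV collagen and laminin each polymerise into a network, and the layered networks form the basement membrane, the sheet on which the seminiferous epithelium rests. Sertoli cells and the peritubular myoid cells around the tubule are the known makers of that sheet. Fibrillar collagens instead form the fibres of the interstitium between the tubules, with fibril-associated collagens on their surface and type VI collagen as beaded filaments beside them. The genes were placed in a basement membrane network class (19 genes: the laminins, type IV collagens and the heparan or chondroitin sulfate bearing Col15a1 and Col18a1) and in an interstitial class (29 genes: 11 fibrillar, 9 fibril-associated, and 9 of beaded filaments and short chains). Another 4 genes encode membrane-spanning collagens, and 3 (Col7a1, Col26a1 and Col28a1) stood outside these classes.

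Library totals ran from 33287428 to 42479164 counts. Levels are given as CPM, read counts per 1000000 reads after TMM scaling of the libraries, and a level per kilobase is CPM divided by the length of the longest GENCODE M21 transcript. A gene passed when its adjusted p was below 0.05 in edgeR's quasi-likelihood test of knockdown against WT, adjusted over the 23594 genes tested by the Benjamini-Hochberg method. Changes with a standard error (SE) are fitted log2 fold changes of knockdown over WT with 2 libraries per group. Hsf5 itself had 586 and 449 CPM in WT and 287 and 238 CPM in the knockdown, a log2 fold change of -0.98 (SE 0.31, adjusted p = 0.0217 by edgeR). The labelled cell type was checked by 10 pachytene markers, which summed to 11957 and 11447 CPM in WT against 3408 and 2562 CPM in the knockdown. Sycp1 and Hormad1, of meiotic chromosome structure, were higher in the knockdown, and Sycp3 did not pass. The other 7 of the 10 fell, where 33.5% of all genes tested fell. Markers of other cells were also present and moved with the groups. The 19 Sertoli markers summed to 212 and 543 CPM in WT and to 4693 and 5497 CPM in the knockdown. The 8 spermatid markers summed to 3685 and 1818 CPM in WT and to 0.487 and 0.412 CPM in the knockdown. In such bulk libraries, fewer cells of a type and less RNA per cell cannot be told apart.

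Promoter sequences are shown for the genes that carried the most counts on either side of the comparison, and for the pair of type IV collagen genes that share a start region. RefSeq windows were listed for 40 of the 55 genes. The stretches are the 250 bases before the annotated start, in build GRCm38.p6, and capitals mark, on either strand, every match to the CCAAT box, to the core of the GC box, GGGCGG, and to the TATA box letters TATAAA. Lamb2 (chr9:108479612-108479861, plus strand) had the highest level per kilobase of all 55 in the knockdown, Lamb1 (chr12:31265043-31265292, plus strand) is its paralog that also rose, and Col16a1 (chr4:130047590-130047839, plus strand) had the highest level per kilobase in WT and fell.
Lamb2: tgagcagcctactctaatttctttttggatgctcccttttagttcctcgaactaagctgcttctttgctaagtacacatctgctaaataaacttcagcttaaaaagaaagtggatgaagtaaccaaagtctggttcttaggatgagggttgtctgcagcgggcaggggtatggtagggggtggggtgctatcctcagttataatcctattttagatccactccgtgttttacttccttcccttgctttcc
Lamb1: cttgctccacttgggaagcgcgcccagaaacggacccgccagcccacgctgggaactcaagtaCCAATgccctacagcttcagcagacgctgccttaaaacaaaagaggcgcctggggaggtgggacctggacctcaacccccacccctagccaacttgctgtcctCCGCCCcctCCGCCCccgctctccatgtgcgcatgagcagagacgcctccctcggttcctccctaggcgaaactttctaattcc
Col16a1: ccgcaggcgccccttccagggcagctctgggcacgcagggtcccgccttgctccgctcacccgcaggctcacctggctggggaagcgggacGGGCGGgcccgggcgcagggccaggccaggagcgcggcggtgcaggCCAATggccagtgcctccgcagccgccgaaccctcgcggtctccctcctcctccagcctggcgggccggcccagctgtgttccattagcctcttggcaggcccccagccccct
The stretch before Lamb2 had a GC content of 43.6% and none of the 3 motifs. That before Lamb1 had a GC content of 62% with 1 CCAAT box and 2 GC box matches, and that before Col16a1 had 75.6% with 1 CCAAT box and 1 GC box match. Among stretches of 27025 genes, 34.5% held a CCAAT box, 32.9% a GC box core and 13% the TATA box letters. Of the 21 listed members that rose, 7 held a CCAAT box, 14 a GC box core and 3 the TATA box letters. Of the 9 that fell, 3, 4 and 0 did, and of the 9 that did not pass, 3, 5 and 1 did. These matches are letters in a window and not binding sites.

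Col4a1 and Col4a2 lie head to head on chromosome 8, Col4a1 on the minus strand with its annotated first base at 11312826 and Col4a2 on the plus strand with its first base at 11312805. The annotated transcripts therefore overlap by 22 bases, which hold 1 GC box core, in capitals, read on the plus strand at chr8:11312805-11312826.
Col4a1 and Col4a2 shared start: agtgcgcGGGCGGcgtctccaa

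The summed level of the 55 genes was of the same order in all libraries, but its composition was not. The sum was 821 and 838 CPM in WT and 1145 and 1261 CPM in the knockdown. In WT, Col16a1, Col22a1, Col2a1 and Col20a1 made up 71.6% and 56.1% of all collagen and laminin counts, and in the knockdown 5.73% and 4.91%. Lamb2, Col18a1, Lama1 and Lamc3 made up 1.87% and 7.58% in WT and 35.5% and 43.5% in the knockdown. These genes were singled out after their values were seen.

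The summed level of basement membrane genes stood higher and that of interstitial genes lower in the knockdown. The basement membrane class summed to 89.7 and 209 CPM in WT and to 745 and 949.9 CPM in the knockdown, a log2 difference of 2.62. That difference was 1.99 without WT replicate 1, 3.25 without WT replicate 2, and 1.84 when 15 genes of the synaptonemal complex or of cohesin set the library sizes (axis-gene scaling). The interstitial class summed to 698 and 594 CPM in WT and to 368 and 283 CPM in the knockdown, a log2 difference of -0.996 that was -0.56 with library totals only and -1.78 under the axis-gene scaling. Of the counts of both classes together, basement membrane genes took 11.4% and 26% in WT but 66.9% and 77.0% in the knockdown, a mean of 18.7% ± 10.3 (SD, n = 2) against 72.0% ± 7.16 (SD, n = 2). This share does not depend on the scaling between libraries, and the groups did not overlap in it. A two-sided exact permutation test over the samples gave p = 0.33 for each of these 3 values, the smallest that 2 against 2 libraries allow. The interstitial difference rested on Col16a1, without which it was -0.16. With only type IV collagens and laminins set against only fibrillar collagens, the share was 45.3% and 64.2% in WT and 72.8% and 82.6% in the knockdown, a smaller gap that also did not overlap.

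**Figure D1:**
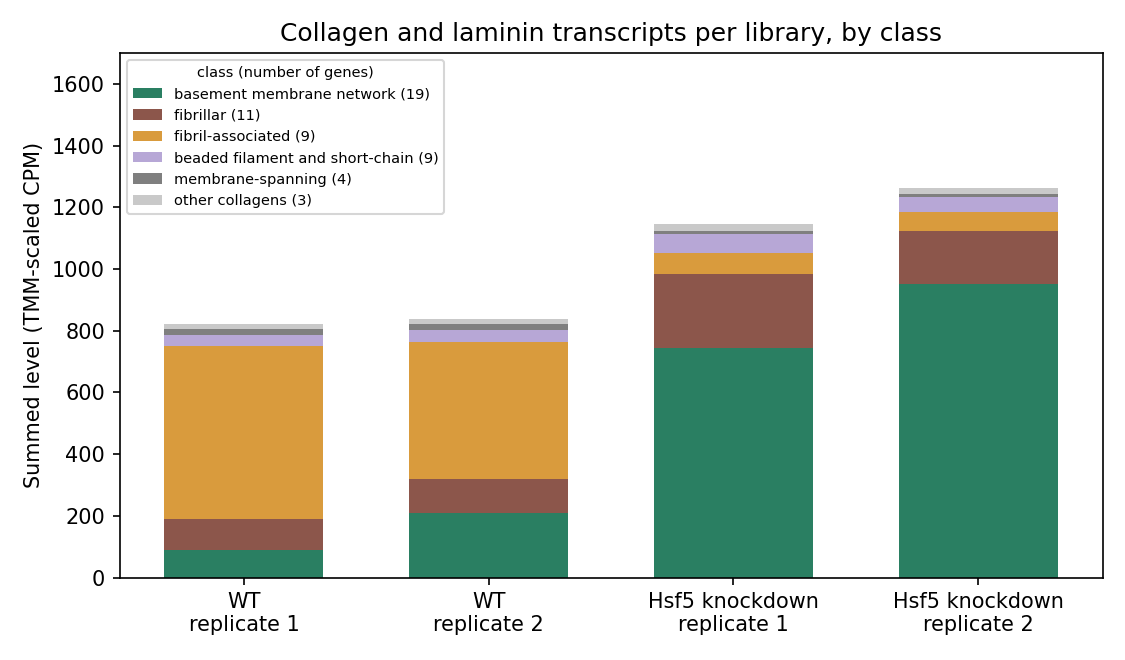
Summed level (TMM-scaled CPM) of the collagen and laminin genes in each library, stacked by class, with the number of genes per class in the key. The basement membrane part grows from 89.7 and 209 CPM in WT to 745 and 949.9 CPM in the knockdown, while the fibril-associated part shrinks from 559 and 445 CPM to 67.0 and 62.2 CPM.

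Of the 54 genes tested, 28 rose, 13 fell and 13 did not pass, where 27.4% of all genes tested rose, 33.5% fell and 60.9% passed in either direction. Col10a1, the remaining gene, was not tested for lack of counts. The median log2 fold change was 1.39, against -0.12 over all genes tested. Both knockdown libraries lay above both WT libraries for 35 of the 55 genes and below them for 15, where 39.0% and 43.7% of all genes tested did so. The basement membrane class held 14 that rose and 1 that fell, with a median of 2.41, and the interstitial class 13 that rose and 10 that fell, with a median of 0.88. The median and the summed level of the interstitial class thus differed in sign, its most highly counted genes being among those that fell. The split depended on the scaling: 29 rose and 12 fell with library totals only, with an all-gene median of 0.31, and 10 rose and 13 fell under the axis-gene scaling, with an all-gene median of -0.85. The 10 were Lamb2, Lamb1, Lama1, Lama3, Lamc1, Col18a1, Col1a1, Col5a3, Col6a2 and Col8a2. Of the type IV collagens none passed there. The WT libraries themselves differed for the genes that rose. WT replicate 2 was above WT replicate 1 for 22 of these 28 genes, with a median ratio of 2.92, and for 3 of the 13 that fell, with a median ratio of 0.874. Leaving out WT replicate 2 made 20 of the 28 rises larger by over 1.5 times, and leaving out WT replicate 1 made 15 smaller by over 1.5 times, with 24 and 25 genes called higher without WT replicate 1 and without WT replicate 2.

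**Figure D2:**
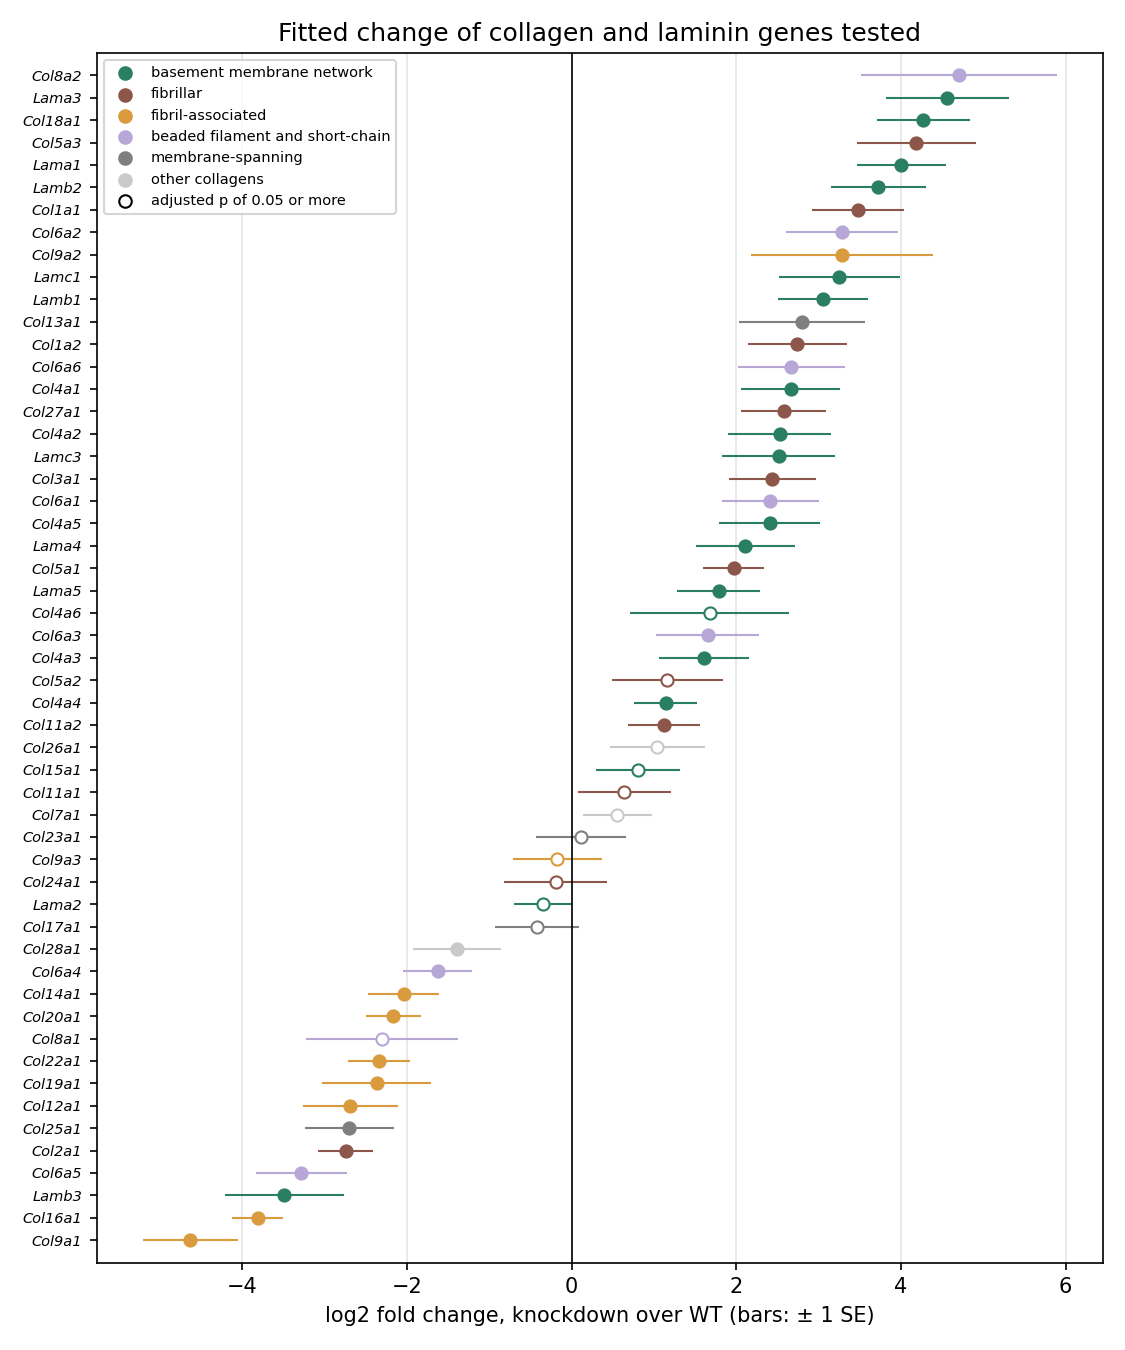
Fitted log2 fold change of knockdown over WT (horizontal axis, bars ± 1 SE) for the collagen and laminin genes tested and reported here, coloured by class, with open symbols where the adjusted p was 0.05 or more. The 7 fibril-associated genes that fell lie between -4.63 and -2.04, and all basement membrane genes that passed lie to the right of 0 except Lamb3.

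Laminin alpha chains set the cell-binding end of the trimer, and 4 of the 5 rose. Lama1, the alpha chain of embryonic and testis basement membranes, had 2.86 and 8.33 CPM in WT and 68.8 and 110.2 CPM in the knockdown, a log2 fold change of 4.002 (SE 0.54, adjusted p = 0.000292 by edgeR). It was 3.41 without WT replicate 1 and 4.99 without WT replicate 2. Lama5, the widespread adult alpha chain, had 8.93 and 23.4 CPM in WT and 38.9 and 72.6 CPM in the knockdown. Lama4, of vessel and muscle basement membranes, had 1.459 and 3.51 CPM in WT and 7.21 and 14.2 CPM in the knockdown. The knockdown libraries were higher throughout for all 3 genes, although Lama4 (adjusted p = 0.0827) and Lama5 (adjusted p = 0.0829) did not pass in edgeR without knockdown replicate 2, and without WT replicate 2 their log2 fold changes were 2.89 and 2.67. Lama3, the alpha chain of epithelial anchoring laminin, was almost absent in WT with 0.149 and 0.486 CPM and had 5.18 and 9.76 CPM in the knockdown. Its log2 fold change of 4.56 (SE 0.75) was the largest among the laminins, and was 3.91 without WT replicate 1 and 5.64 without WT replicate 2. Lama2, the alpha chain of muscle and peripheral nerve, was the exception, with 29.5 and 43.1 CPM in WT and 32.5 and 24.7 CPM in the knockdown. Its groups overlapped and it did not pass (log2 fold change -0.34, SE 0.35; edgeR, adjusted p = 0.426). Per kilobase, Lama2 was the highest alpha chain in both WT libraries (3.07 and 4.48), whereas Lama1 was in both knockdown libraries (7.22 and 11.6).

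Among the beta chains, Lamb1 and Lamb2 rose and Lamb3 fell. Lamb2, the beta chain of muscle, kidney and synaptic basement membranes, had 6.37 and 24.5 CPM in WT and 180.3 and 228 CPM in the knockdown. Its log2 fold change was 3.73 (SE 0.57, adjusted p = 0.000585 by edgeR), with 3.04 without WT replicate 1 and 5.02 without WT replicate 2. Lamb1, the widespread beta chain, had 3.39 and 11.7 CPM in WT and 65.4 and 60.5 CPM in the knockdown, a log2 fold change of 3.06 (SE 0.55) that was 2.41 without WT replicate 1 and 4.23 without WT replicate 2. Lamb3, the beta partner of Lama3 in anchoring laminin, went the other way, from 4.08 and 3.40 CPM in WT to 0.487 and 0.169 CPM in the knockdown. It was the only basement membrane gene called lower (log2 fold change -3.49, SE 0.72; edgeR, adjusted p = 0.00267), and was at -4.36 without knockdown replicate 1. Per kilobase, Lamb2 exceeded Lamb1 by 1.93 and 2.14 times in WT and by 2.83 and 3.87 times in the knockdown.

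The gamma chain genes Lamc1 and Lamc3 differed widely between the WT libraries, and both rose. Lamc1, the gamma chain of most laminins, had 1.52 and 9.24 CPM in WT and 35.8 and 66.4 CPM in the knockdown. Lamc3, a gamma chain described in testis at the junction of elongating spermatids with Sertoli cells, had 3.51 and 21.7 CPM in WT and 61.9 and 82.0 CPM in the knockdown. WT replicate 2 exceeded WT replicate 1 by 6.08 times for Lamc1 and 6.19 times for Lamc3, yet both knockdown libraries lay above it. The log2 fold changes were 3.25 (SE 0.73) for Lamc1 and 2.51 (SE 0.68) for Lamc3. Without WT replicate 1 they were 2.45 and 1.71, and without WT replicate 2 they were 5.09 and 4.38. Per kilobase Lamc3 was above Lamc1 by 3.00 and 3.06 times in WT and by 2.25 and 1.60 times in the knockdown.

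**Figure D3:**
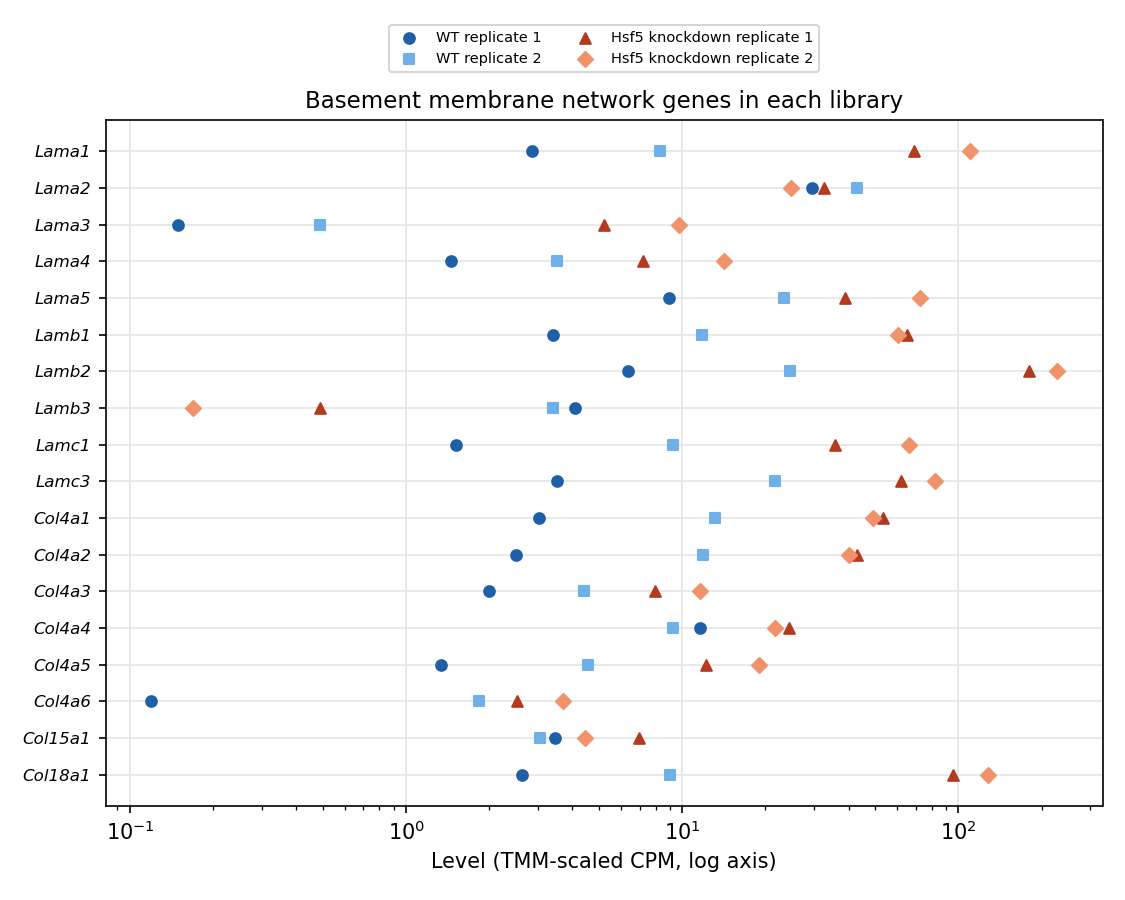
Level of basement membrane network genes (TMM-scaled CPM, log axis) in the 4 libraries, one symbol per library. Among the genes drawn, the knockdown symbols lie to the left of both WT symbols for Lamb3, mix with them for Lama2, and lie to the right for the others.

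Type IV collagen chains are encoded as 3 head-to-head pairs, and 5 of the 6 genes rose. Col4a1 and Col4a2, whose chains form the type IV trimer of nearly all basement membranes, moved nearly as one. Col4a1 had 3.04 and 13.2 CPM in WT and 53.3 and 48.8 CPM in the knockdown, and Col4a2 had 2.50 and 11.9 CPM in WT and 42.7 and 40.1 CPM in the knockdown. The ratio of Col4a1 to Col4a2 per kilobase was 1.18 and 1.08 in WT and 1.22 and 1.19 in the knockdown, while each gene differed by over 4 times between the WT libraries (4.33 and 4.75). Their log2 fold changes were 2.66 (SE 0.60) and 2.53 (SE 0.63), 1.94 and 1.78 without WT replicate 1, and 4.10 and 4.07 without WT replicate 2.

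Col4a3 and Col4a4, on chromosome 1, contribute with Col4a5 to the trimer of kidney and testis basement membranes. Col4a3 had 1.995 and 4.41 CPM in WT and 7.95 and 11.6 CPM in the knockdown, and Col4a4 had 11.6 and 9.24 CPM in WT and 24.4 and 21.6 CPM in the knockdown. Both passed, but weakly: Col4a3 (edgeR, adjusted p = 0.0285) was lost without WT replicate 1 (0.126) or knockdown replicate 2 (0.122), and Col4a4 (edgeR, adjusted p = 0.0259) without WT replicate 2 (0.107), knockdown replicate 1 (0.0836) or knockdown replicate 2 (0.0642). Without WT replicate 2 the log2 fold change of Col4a3 went from 1.61 to 2.31. Col4a4 was the only type IV gene lower in WT replicate 2 than in WT replicate 1, and its ratio to Col4a3 per kilobase ranged from 1.58 in knockdown replicate 2 to 4.91 in WT replicate 1. The third pair is X-linked, and X-linked genes as a whole had a median log2 fold change of 2.89 (817 genes tested). Col4a5 had 1.34 and 4.55 CPM in WT and 12.1 and 18.98 CPM in the knockdown, a log2 fold change of 2.41 (SE 0.62, adjusted p = 0.00798 by edgeR) that was 1.76 without WT replicate 1 and 3.56 without WT replicate 2. Col4a6 had 0.119 and 1.84 CPM in WT and 2.52 and 3.70 CPM in the knockdown. It did not pass (log2 fold change 1.68, SE 0.96; edgeR, adjusted p = 0.158), but did without WT replicate 2 (4.69, adjusted p = 9.33e-05), with all genes kept regardless of counts (1.70, adjusted p = 0.0223) and with the replicate number as a block (2.37, adjusted p = 0.0131). It was 0.74 without WT replicate 1 (edgeR, adjusted p = 0.44) and 0.92 under the axis-gene scaling (adjusted p = 0.503).

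The 2 collagens that carry glycosaminoglycan chains in the basement membrane zone differed from each other. Col18a1, the source of the fragment endostatin, had 2.62 and 8.99 CPM in WT and 95.3 and 128 CPM in the knockdown. Its log2 fold change of 4.27 (SE 0.56, adjusted p = 0.00026 by edgeR) was 3.62 without WT replicate 1 and 5.44 without WT replicate 2. Col15a1 had 3.45 and 3.06 CPM in WT and 6.94 and 4.46 CPM in the knockdown, and did not pass (log2 fold change 0.81, SE 0.51; edgeR, adjusted p = 0.2).

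Fibrillar collagens as a class rose in 7 of 11 genes and fell in 1, and the gene that fell had the highest level per kilobase of them in WT. Col2a1, the fibrillar collagen of cartilage, had 68.6 and 61.5 CPM in WT and 10.5 and 8.93 CPM in the knockdown (log2 fold change -2.74, SE 0.34; edgeR, adjusted p = 0.000183). Col1a1 and Col1a2, whose chains form type I collagen of connective tissue, both rose. Col1a1 had 1.58 and 3.26 CPM in WT and 36.5 and 17.5 CPM in the knockdown, and Col1a2 had 3.57 and 14.2 CPM in WT and 73.6 and 45.0 CPM in the knockdown. Their log2 fold changes were 3.48 (SE 0.56) and 2.74 (SE 0.60), with 2.05 for Col1a2 without WT replicate 1, and 4.12 and 4.08 for Col1a1 and Col1a2 without WT replicate 2. Col3a1, which co-assembles with type I in soft tissue, had 4.08 and 11.3 CPM in WT and 51.9 and 31.2 CPM in the knockdown (log2 fold change 2.44, SE 0.53, and 3.37 without WT replicate 2). For these 3 genes knockdown replicate 1 was above knockdown replicate 2, the reverse of 10 of the 14 basement membrane genes that rose.

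Type V collagen starts the growth of type I fibrils. Col5a1 had 8.78 and 7.43 CPM in WT and 30.9 and 32.7 CPM in the knockdown, with replicates close to each other (log2 fold change 1.97, SE 0.37; edgeR, adjusted p = 0.00162). Col5a3 had 0.357 and 0.139 CPM in WT and 5.35 and 3.92 CPM in the knockdown (log2 fold change 4.19, SE 0.72, and 5.01 without WT replicate 1). Col5a2 had 0.923 and 0.903 CPM in WT and 2.86 and 1.23 CPM in the knockdown and did not pass. Col27a1, a long fibrillar chain of cartilage, rose from 1.79 and 2.15 CPM to 8.50 and 15.0 CPM. Col11a2, a cartilage chain, had 6.73 and 5.45 CPM in WT and 15.5 and 11.1 CPM in the knockdown, and its call (edgeR, adjusted p = 0.0479) was lost on leaving out any of the 4 libraries (adjusted p from 0.0615 to 0.181). Col11a1 (2.05 and 1.94 CPM in WT, 2.45 and 3.78 CPM in the knockdown) and Col24a1 (2.62 and 1.28 CPM, 1.61 and 1.82 CPM) did not pass, and Col24a1 had overlapping groups.

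Fibril-associated collagens carry interrupted helices and bind to the surface of fibrils. Of the 9 genes 7 fell, 1 (Col9a2) rose and 1 (Col9a3) did not pass, with a median log2 fold change of -2.34, and the same 7 genes fell with DESeq2 size factors, with library totals only and under the axis-gene scaling. Col16a1, which marks small fibrils and matrix near the cell surface, had 329 and 288 CPM in WT and 23.0 and 20.8 CPM in the knockdown. Per kilobase it stood at 63.3 and 55.3 in WT, above every other gene of the 55, and at 4.43 and 4.0 in the knockdown. Its log2 fold change of -3.81 (SE 0.31, adjusted p = 2.18e-05 by edgeR) stayed between -3.88 and -3.73 on leaving out any library. Col22a1, of tissue junctions such as that of muscle and tendon, had 132 and 67.7 CPM in WT and 19.1 and 20.3 CPM in the knockdown. Col20a1 had 57.6 and 53.4 CPM in WT and 12.9 and 11.8 CPM in the knockdown, and Col14a1, of skin and tendon, had 17.8 and 15.5 CPM in WT and 4.29 and 3.78 CPM in the knockdown. Replicates of these 4 genes were close, apart from Col22a1 in WT, where replicate 1 was the higher library.

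Col9a1, a type IX collagen chain of cartilage, had the deepest fitted fall of the 55 genes, from 8.87 and 9.17 CPM to 0.381 and 0.339 CPM (log2 fold change -4.63, SE 0.58; edgeR, adjusted p = 0.000196). The partner chains of type IX collagen did not follow it: Col9a3 had 6.43 and 3.89 CPM in WT and 5.75 and 3.41 CPM in the knockdown, and Col9a2 was near the counting floor. Col9a2 had 2 counts in WT against 30 in the knockdown, a CPM ratio of 10.6. Putting the exact 95% Poisson interval of the WT count into this ratio gave limits of 2.92 and 87.2. They cover the counting error of the WT count only. Its call in edgeR (adjusted p = 0.0272) was lost with all genes kept regardless of counts (0.0821), with DESeq2 (0.157), with the replicate number as a block (0.0747), without WT replicate 1 (0.0845), without WT replicate 2 (0.299) and without knockdown replicate 2 (0.131). Col12a1, of dense connective tissue, had 4.38 and 5.69 CPM in WT and 0.762 and 0.799 CPM in the knockdown. Col19a1 had 2.86 and 2.36 CPM in WT and 0.381 and 0.630 CPM in the knockdown, and did not pass without knockdown replicate 1 (edgeR, adjusted p = 0.056).

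**Figure D4:**
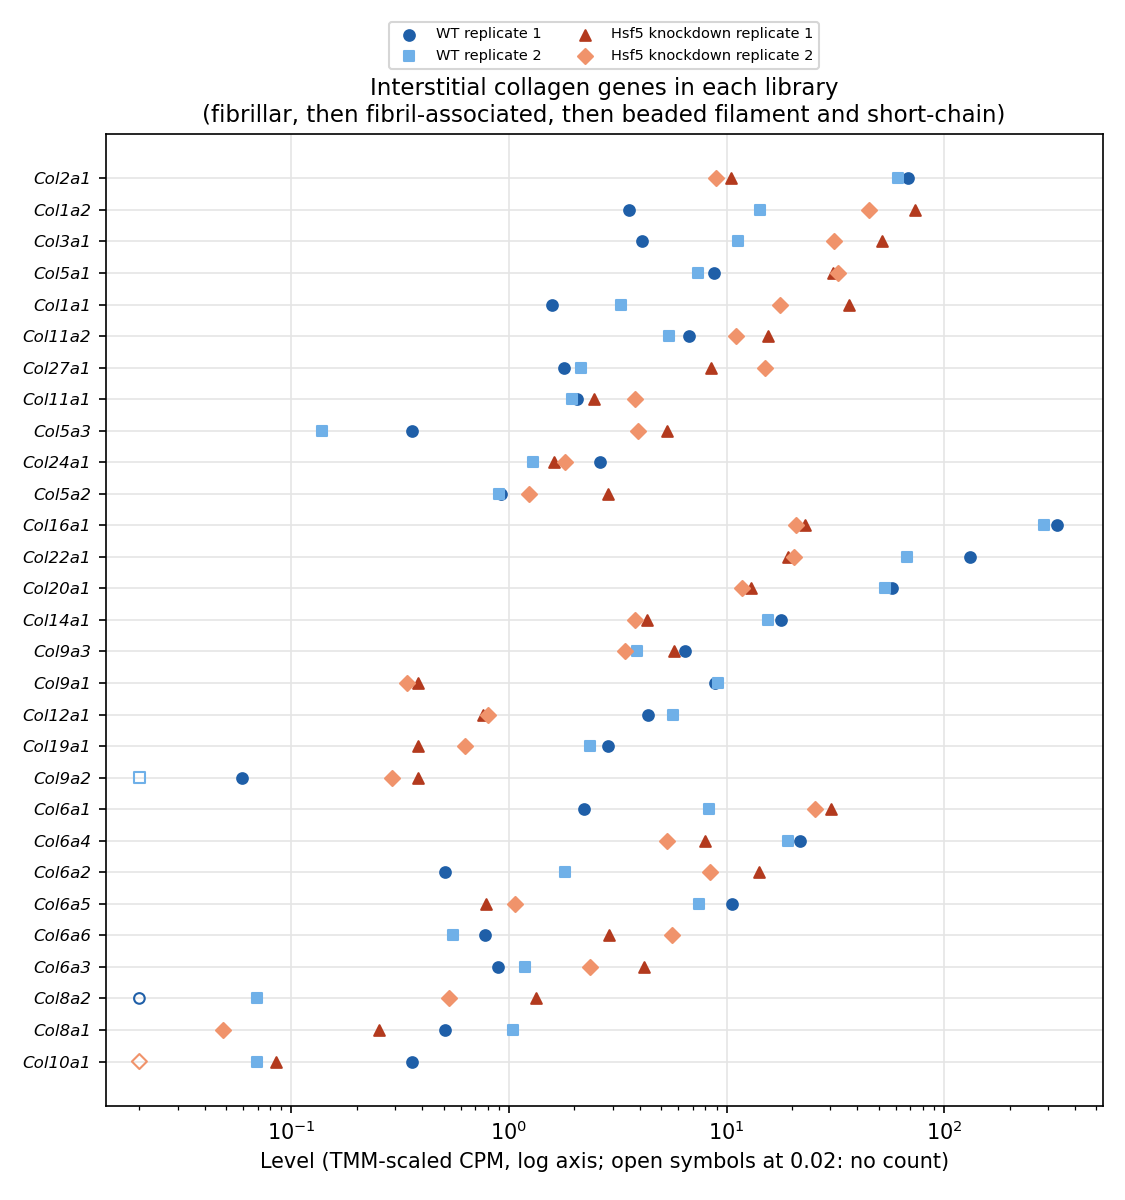
Level of each interstitial collagen gene (TMM-scaled CPM, log axis) in the 4 libraries, grouped as fibrillar, fibril-associated, and beaded filament and short-chain genes, with open symbols for libraries without a count. Col16a1, Col22a1 and Col20a1 sit to the far right in WT and move left in the knockdown, whereas Col1a1, Col1a2 and Col3a1 move right.

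Type VI collagen, the beaded filament that ties basement membranes to the interstitium, split by chain. Its core chains rose: Col6a1 had 2.204 and 8.26 CPM in WT and 30.2 and 25.4 CPM in the knockdown, and Col6a2 had 0.506 and 1.81 CPM in WT and 14.1 and 8.38 CPM in the knockdown. Their log2 fold changes were 2.41 (SE 0.59) and 3.29 (SE 0.68), 1.73 and 2.62 without WT replicate 1, and 3.68 and 4.49 without WT replicate 2. Col6a3, the long core chain, had 0.893 and 1.18 CPM in WT and 4.17 and 2.35 CPM in the knockdown, and its call (edgeR, adjusted p = 0.0424) was lost without WT replicate 1 (0.127), WT replicate 2 (0.0516) or knockdown replicate 1 (0.174). The alternative chains Col6a4, Col6a5 and Col6a6 lie next to each other on chromosome 9 and moved in different directions. Col6a4 fell from 21.7 and 19.1 CPM to 7.93 and 5.30 CPM, with the call lost without knockdown replicate 2 (edgeR, adjusted p = 0.0604). Col6a5 fell from 10.6 and 7.47 CPM to 0.783 and 1.065 CPM (log2 fold change -3.28, SE 0.55), whereas Col6a6 rose from 0.774 and 0.556 CPM to 2.88 and 5.64 CPM (log2 fold change 2.67, SE 0.65). These 3 are similar in sequence, so their counts are less certain.

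The short-chain collagens were near the floor. Col8a2, a chain of vessel and corneal matrix, had 2 counts in WT against 85 in the knockdown, a CPM ratio of 29.9. The exact 95% Poisson interval of the WT count alone gave limits of 8.29 and 247 for this ratio. Col8a2 did not pass in edgeR without knockdown replicate 1, where its log2 fold change was 3.94. Its partner Col8a1 had 0.506 and 1.04 CPM in WT and 0.254 and 0.0484 CPM in the knockdown (edgeR, adjusted p = 0.0544), and passed as lower under the axis-gene scaling (-3.34, edgeR adjusted p = 0.0189). Col10a1, of growth plate cartilage, had 0.357 and 0.0694 CPM in WT and 0.0846 CPM and no count in the knockdown.

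Membrane-spanning collagens have a helix outside the cell and a tail inside it. Col25a1, of neurons, fell from 8.37 and 11.8 CPM to 1.14 and 1.96 CPM (log2 fold change -2.70, SE 0.54; edgeR, adjusted p = 0.00227). Col13a1, of cell adhesion sites, rose from 0.179 and 0.521 CPM to 2.92 and 1.91 CPM (log2 fold change 2.79, SE 0.76, 2.19 without WT replicate 1 and 3.76 without WT replicate 2). Col17a1, of hemidesmosomes, with 4.02 and 5.14 CPM in WT and 3.03 and 3.83 CPM in the knockdown, and Col23a1, with 3.99 and 2.29 CPM in WT and 3.41 CPM in each knockdown library, did not pass. Of the remaining collagens, Col28a1 had 6.67 and 5.00 CPM in WT and 1.80 and 2.66 CPM in the knockdown, a call as lower (edgeR, adjusted p = 0.0459) that was lost without WT replicate 1 (0.144), knockdown replicate 1 (0.195) or knockdown replicate 2 (0.0617). Col7a1, of the anchoring fibrils under skin epithelium, had 7.95 and 7.15 CPM in WT and 11.7 and 10.5 CPM in the knockdown, and Col26a1, first described in testis and ovary, had 2.05 and 3.37 CPM in WT and 7.43 and 3.70 CPM in the knockdown. Neither passed.

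Genes that work on or with these proteins were read from the same fit. For every list below, the share over all genes tested was 27.4% higher and 33.5% lower. Basement membrane linkers and proteoglycans followed the basement membrane class, with 9 of 16 higher, 1 lower and a median log2 fold change of 2.37. Fbln1, a fibulin of basement membranes, rose by 3.93 (SE 0.42) and Agrn, a heparan sulfate proteoglycan, by 3.74 (SE 0.45, and 4.35 without WT replicate 2) on the log2 scale, whereas Egflam, of retinal and muscle synapses, fell by 3.16 (SE 0.39). Of 17 interstitial glycoproteins and proteoglycans tested 10 rose and 3 fell (median 1.74). Thbs1, a matricellular protein, and Fn1, fibronectin, rose by 3.68 (SE 0.42) and 3.40 (SE 0.41), and Fbn2, a microfibril protein, fell by 3.01 (SE 0.40), from 163 and 250.1 CPM to 18.1 and 32.98 CPM.

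Collagen folding and modification genes rose almost throughout, in 16 of 18 with 1 lower (Mia3, an export receptor for collagen) and a median of 2.49. P4ha1, the catalytic subunit of proline hydroxylation, had 4.38 and 7.88 CPM in WT and 81.3 and 78.5 CPM in the knockdown. P3h1, of a complex that modifies single prolines, rose by 3.46 (SE 0.36) and Colgalt1, which adds galactose to collagen, by 3.70 (SE 0.43, and 4.36 without WT replicate 2) on the log2 scale. Only P3h2 did not pass. Of 12 maturation and crosslinking genes 8 rose and 1 (Loxl1, a lysyl oxidase) fell, with a median of 2.04. Bmp1, the protease that trims procollagen, rose by 2.36 (SE 0.48) and its enhancer Pcolce by 1.77 (SE 0.43, and 2.62 without WT replicate 2), the latter not past the test without WT replicate 1 (edgeR, adjusted p = 0.0588) and neither past it under the axis-gene scaling (0.096 and 0.173). Adamts14, a procollagen protease, had 3 counts in WT and 308 in the knockdown, a CPM ratio of 72.3. The exact 95% Poisson interval of the WT count alone gave limits of 24.7 and 351 for this ratio.

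Of 14 receptors for collagen or laminin 7 rose and 2 fell, with a median of 1.64. Ddr1, a receptor kinase for collagen, rose by 4.38 (SE 0.44) and Itgb1, the shared beta subunit of collagen and laminin integrins, by 3.14 (SE 0.46), or 4.05 without WT replicate 2 and 2.36 under the axis-gene scaling. Of the subunits that give integrins their affinity for collagen, Itga1 and Itga2 fell, Itga1 from 20.6 and 18.1 CPM to 3.03 and 2.47 CPM and Itga2 from 3.39 and 2.71 CPM to 0.762 and 0.339 CPM. The other collagen-binding subunits did not pass in edgeR, Itga10 with a log2 fold change of -0.69 (adjusted p = 0.278) and Itga11 with -1.04 (adjusted p = 0.146). The laminin-binding subunits Itga3 and Itga6 rose, Itga6 from 4.32 and 8.19 CPM to 33.1 and 68.8 CPM, and Itga7 did not pass. Members of these lists outside the 3 with the smallest p were named after their values were seen. Of 5 netrins, secreted or tethered relatives of laminin, 3 rose, with Ntn4 going from 0.715 and 1.11 CPM to 19.2 and 40.2 CPM (log2 fold change 5.02, and 4.39 without knockdown replicate 2), while the calls of Ntn1 (adjusted p from 0.0877 to 0.129) and, except without WT replicate 2, Ntng2 (from 0.121 to 0.243) were lost in edgeR on leaving out a library. Both were also lost under the axis-gene scaling (0.526 and 0.181), Ntn1 with DESeq2 size factors (0.0573), and Ntng2 with the replicate number as a block (0.0516) and in the DESeq2 Wald test (0.0837). Of 11 matrix proteases and inhibitors tested 9 rose and none fell (median 3.24), among them the collagenase gene Mmp14 (3.24, SE 0.46), Mmp11 (3.32, SE 0.49) and the inhibitor gene Timp1 (5.03, SE 0.67). Without WT replicate 2 Mmp14 was at 3.95 and Timp1 at 5.92, and under the axis-gene scaling these 3 were at 2.55, 2.61 and 4.20. That scaling lowered the fitted log2 value of each gene named for the smallest p in these lists by a similar amount and turned no direction.

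Markers of the cells known to make these matrix proteins, and of other cells, were read beside the 28 genes that rose. Of all genes tested 27.4% rose and 33.5% fell. All 19 Sertoli markers rose, with a median log2 fold change of 3.90, and their summed level was 13.5 times higher in the knockdown, against 5.68 times for the basement membrane class. Between the WT libraries the Sertoli sum was 2.56 times higher in replicate 2, beside 2.33 times for the basement membrane class. The same ratio was 6.86 for Leydig, 1.88 for fibroblast, 1.72 for macrophage, 1.68 for endothelial, 1.17 for peritubular myoid and 0.949 for spermatogonial markers. In WT, Mylk (58.3 and 87.2 CPM) and Actg2 (49.7 and 34.4 CPM) made up most of the myoid sum. Id4 (126 and 93.8 CPM) made up most of the spermatogonial sum. Among the myoid markers tested, Lmod1 (3.89), Myh11 (3.21), Myl9 (2.43) and Des (2.33) had ratios no lower than the basement membrane class. Acta2, Mylk, Synpo2 (0.833), Actg2 (0.693) and Cnn1 (0.643) had lower ratios. All 8 Leydig markers rose, with sums of 119 and 817 CPM in WT and 1443 and 2933 CPM in the knockdown. The 10 peritubular myoid markers summed to 116 and 135 CPM in WT and to 236 and 153 CPM in the knockdown, with 6 higher and 1 (Actg2) lower. Of 7 fibroblast markers tested 6 rose, with Dpt at 0 in WT, and their sums went from 13.4 and 25.2 CPM to 140.3 and 114 CPM. Macrophage markers rose in 8 of 10. Endothelial markers rose in only 4 of 10, nearer the share over all genes tested, and the other 6 did not pass. Spermatogonial markers rose in 8 of 12, with sums of 184 and 174 CPM in WT and 873 and 781 CPM in the knockdown. Sums for fibroblast, macrophage, peritubular myoid and spermatogonial markers were higher in knockdown replicate 1, as were Col1a1, Col1a2 and Col3a1. Sums for Sertoli, Leydig and endothelial markers were higher in knockdown replicate 2, as was the basement membrane sum. Within that class Lamb1, Col4a1, Col4a2 and Col4a4 rose but went against the order of the sum, being higher in knockdown replicate 1. Beside the genes that fell stand the spermatid sums given above and those of the pachytene markers, which were 3.92 times lower in the knockdown. The part of these cell types in the results was not tested.

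**Figure D5:**
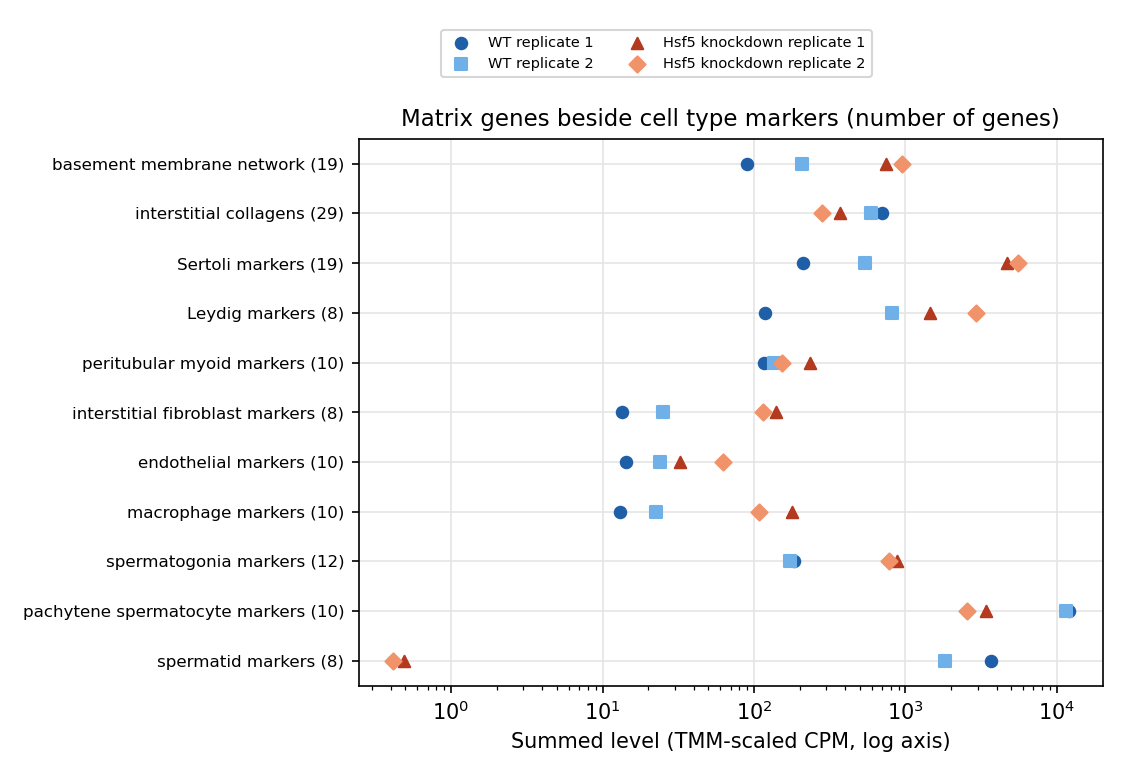
Summed level (TMM-scaled CPM, log axis) of the basement membrane network and interstitial collagen classes and of the marker lists of 9 cell types in the 4 libraries, with the number of genes in parentheses. The basement membrane class and the Sertoli, Leydig and endothelial markers are ordered alike, from WT replicate 1 over WT replicate 2 to knockdown replicates 1 and 2. Fibroblast, macrophage and peritubular myoid markers have the same order in WT, with knockdown replicate 1 above knockdown replicate 2. The spermatid markers fall to 0.487 and 0.412 CPM in the knockdown.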

How the data were processed

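The authors deposited raw read counts per gene symbol, with 1 column per library. Per the submitters' processing notes, the tools were featureCounts 1.5.3, HISAT2 2.2.1, Trim Galore 0.6.10 and DESeq2 1.46.0, and the build was mm39. Which annotation was counted, whether strand was used and how reads matching several places were treated is not given in the sources used here. Counts of similar or overlapping genes are therefore less certain.

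The test was that of edgeR 4.0.16 under R 4.3.3. The function filterByExpr by group kept 23594 genes, TMM factors (0.854 and 0.865 in WT, 1.11 and 1.22 in the knockdown) scaled the libraries, and the quasi-likelihood F test compared the groups. The common coefficient of biological variation was 0.356. Each SE is an approximation from the fold change and the F statistic (their log2 fold change over the root of F). The counting floor is a sum of 3 counts over the libraries of a group. A CPM ratio given for a gene at or below it carries limits from the exact Poisson interval of the low count. The count of the other group was held fixed in these limits, and no count was replaced by the floor. The fit was also run on simulated counts in which few genes changed, equally in both directions. That setting differs from these data, where 60.9% of the genes tested passed, so it does not check the scaling.

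The gene set, classes, marker and pathway lists, tests and alternatives were chosen with earlier results of these data known. Genes with a mean of at least 1 CPM are given with each library's value, and per pathway list up to 3 genes past 0.05 with the smallest p. The values of 1 gene are not reported here, though it stays in the counts, sums and fits. Chromosomes are from RefSeq annotation of GRCm38.p6, which predates the mm39 build, and all 55 symbols matched there and in GENCODE M21. Promoter stretches are the first listed RefSeq window per gene. Alternatives were other scalings, other low-count filters, a block for the replicate number, the Wald test of DESeq2 1.42.0, leaving out each library, and other class definitions.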

Additional observations from a re-analysis of the deposited data

How the results depend on the processing

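The count of 28 genes called higher ranged from 22 to 29 and that of 13 called lower from 11 to 13 under the alternatives, except that 10 were called higher under the axis-gene scaling. Under that scaling the summed difference was 1.84 for the basement membrane class and -1.78 for the interstitial class. The interstitial difference was -0.56 with library totals only and -0.16 without Col16a1. The basement membrane share was higher by 39.7 percentage points without Lamb2 and Col16a1 and by 23.0 points with only type IV collagens and laminins against fibrillar collagens. Leaving out a library gave summed differences from 1.99 to 3.25 for the basement membrane class and from -1.11 to -0.80 for the interstitial class, and a share difference from 46.0 to 60.6 points. The lone library of a group was then assumed to vary like the others. With the replicate number as a block, 28 genes were called higher and 13 lower. The labels do not say that numbers pair libraries, and with only 2 pairs the correlation of replicate 1 deviations across genes (0.211) does not settle it. Among single genes none that passed changed sign. Of those that did not pass, the log2 fold change changed sign for Col15a1 (-0.0046), Col23a1 (-0.57) and Col7a1 (-0.18) under the axis-gene scaling. It did so for Col17a1 (0.025), Col24a1 (0.25), Col9a3 (0.25) and Lama2 (0.086) with library totals only. Leaving out a library moved it from -0.20 to 0.56 for Col23a1, from -0.59 to 0.40 for Col24a1 and from -0.52 to 0.22 for Col9a3, whose groups overlapped.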
